A study of Mus musculus with 24 samples.

Results

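The cytosolic ribosomal protein genes encode the proteins of the ribosomes of the cytosol. They were taken from the gene table by their symbols alone: Rpl or Rps followed by a number and at most 1 letter and 1 digit, plus *Rplp0*, *Rplp1*, *Rplp2* and *Rpsa*, leaving out symbols that hold "-ps" and the Rps6k kinases. This gave 89 of the 55291 symbols in the table, 36 of the small 40S subunit and 53 of the large 60S subunit. In the annotation used for lengths (GENCODE M21, GRCm38), 83 were protein-coding genes and 6 were processed pseudogenes, and 10 had symbols that end in l or l1 and mark a paralogue. RNA-seq read counts were available for 24 libraries of mouse myoblasts, 2 for each combination of 4 cell lines and 3 treatments. The cell lines were a control with a scrambled shRNA (scr) and knockdowns (KD) of *Baf180* (the gene *Pbrm1*), *Baf250a* (the gene *Arid1a*) and *Brd9*, which belong to the PBAF, BAF and ncBAF forms of the SWI/SNF chromatin remodelling complex. Each line was grown untreated, with 100 µM CuSO4 (Cu) or with 50 µM ZnSO4 (Zn), in proliferating culture. The study set out to learn how each complex shapes the response of myoblasts to these metals.

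All 4 lines shared the same handling. The study's methods describe C2C12 myoblasts, an immortalised mouse line, transduced with lentiviral shRNA and kept as puromycin-selected populations, so a line is a pool of transduced cells and not a clone. GEO's labels instead describe primary mouse myoblasts and delivery by lipofectamine, and both descriptions leave the groups as they are. The replicates are described as independent biological replicates.

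Ribosomal proteins are made in nearly equal numbers, because each ribosome takes a single copy of most of them, and their mRNAs are among the most abundant in growing cells. Many of these mRNAs begin with a C and a run of pyrimidines, the 5' terminal oligopyrimidine (TOP) tract, through which LARP1 and the growth kinase mTORC1 set how much of the mRNA is translated. Free RPL5 and RPL11 can bind MDM2 and thereby stabilise p53, and loss-of-function mutation of RPS19 is a known cause of Diamond-Blackfan anaemia.

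The start of each gene is shown for 11 of the members named below, so that a reader can see which carry a TOP tract at the annotated start. These 11 are not a representative draw, and the share with a tract among all members with a window is given below. Each line gives 30 bases of the coding strand around the start in RefSeq (GRCm38.p6), 15 before it and 15 from it onward, 5' to 3', and capitals mark the run of C and T that begins at the annotated start.
Rps21 (chr2:180257364-180257393, plus strand): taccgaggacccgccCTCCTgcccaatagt
Rps6 (chr4:86857353-86857382, minus strand): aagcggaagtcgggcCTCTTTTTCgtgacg
Rpl28 (chr7:4792950-4792979, plus strand): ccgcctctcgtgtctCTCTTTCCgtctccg
Rps15a (chr7:118116133-118116162, minus strand): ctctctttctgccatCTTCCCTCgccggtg
Rplp2 (chr7:141447636-141447665, plus strand): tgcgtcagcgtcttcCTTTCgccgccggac
Rps10 (chr17:27635230-27635259, minus strand): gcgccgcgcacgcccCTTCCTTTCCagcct
Rps18 (chr17:33955651-33955680, minus strand): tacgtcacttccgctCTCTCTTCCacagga
Rps19 (chr7:24884577-24884606, plus strand): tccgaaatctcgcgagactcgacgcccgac
Rpl11 (chr4:136053379-136053408, minus strand): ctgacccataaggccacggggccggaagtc
Rps24 (chr14:24490738-24490767, plus strand): tccggcgccgtagccatcatggtgagtctc
Rpl5 (chr5:107900513-107900542, plus strand): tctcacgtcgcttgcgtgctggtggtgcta

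Of the 89 members, 64 had such a window. A C followed by at least 4 more C or T at the annotated start was found in 13 of the 64 (20.3%), against 2.15% of the 16515 windows of all protein-coding genes in the table and 0 of 69 windows of mitochondrial ribosomal protein genes. The windows of 300 bases around the start (250 before it, 50 from it) held CCGGAAG on either strand, the core recognised by GABPA and other ETS factors, in 39.1% of members and 12.4% of all genes. GCCATNTT, a core of YY1, was found in 18.8% against 6.76%, GGGCGG, the SP1 box, in 59.4% against 48.6%, and the E-box CACGTG in 7.81% against 8.09%, both strands counted. Mitochondrial ribosomal protein genes held CCGGAAG in 36.2% and GCCATNTT in 30.4% of windows. An annotated start can lie some bases from the start used in the cell, so a window without the tract, such as those of *Rps19* and *Rpl11*, says only that these letters do not begin at that base.

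Libraries held between 495778 and 75179394 counts, with a median of 22158430, of which members took 1.68 to 2.97%. The lowest total belonged to *Baf250a* KD with Zn replicate 2, which held 10323 counts over all members. The targeted genes were checked first. *Pbrm1* lay at 42.2 to 75.7 CPM (counts scaled to an equal library total) in the 6 *Baf180* KD libraries and at 99.9 to 227 in the 6 scr libraries, *Arid1a* at 92.0 to 144 in *Baf250a* KD against 266 to 308 in scr, and *Brd9* at 13.8 to 17.9 in *Brd9* KD against 27.2 to 32.4 in scr, so each targeted mRNA was lower in every library of its line. Myoblast markers were present as a sum in all libraries (*Myod1*, *Myf5*, *Pax7*, *Des*, *Cdh15*, *Vcam1* and *Myog* at 2196 to 3215 CPM in scr and 1228 to 1919 in the KD lines). *Des* alone lay at 777 to 2519 CPM, and *Pax7* was at most at 5.41 CPM and at 0 in 1 library. Of 5 fibroblast markers, *Thy1* was at 0 in 22 of 24 libraries, while the summed level of the 5 was 44.1 to 61.6 CPM in scr, 378 to 455 in *Baf180* KD, 2149 to 2754 in *Baf250a* KD and 81.3 to 109 in *Brd9* KD, most of it from *Col1a1*, and its part in the results below was not tested. Leukocyte markers summed to at most 6.22 CPM and endothelial markers to at most 6.18. Reads on rRNA genes made up 4.62 and 1.63% of the 2 untreated scr libraries and at most 1.07% of any other, and their part was not tested either.

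Of the 89 members, 84 passed the filter on low counts over all 24 libraries. The 5 that did not were *Rpl10l* and *Rpl39l*, at 0 counts in every library (a count of 0 allows up to 3), *Rps4l* with 1 count in all, *Rpl3l* with 20 and *Rps12l1* with 32. The other 84 spanned a wide range per transcript length. The highest levels per kilobase were those of *Rpl41*, the shortest ribosomal protein, at 1719 CPM per kb, *Rps15* at 1326, *Rpl8* at 1209 and the stalk protein gene *Rplp0* at 1039.8, and the median was 291, where *Rps19* also lay. Lowest among the protein-coding members without a paralogue symbol were *Rpl24* at 17.5 CPM per kb and *Rps10* at 30.6. The authors kept uniquely mapped reads alone, and ribosomal protein genes have many processed pseudogenes that share their sequence, so these levels are uncertain and a low one cannot be told apart from reads lost to a copy. The reverse holds for *Rps3a3*, annotated as a processed pseudogene, which was listed at a mean of 138.5 CPM, and for *Rps3a2*, *Rpl6l* and *Rpl32l* at 8.18, 0.908 and 0.726 CPM.

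**Figure D1:**
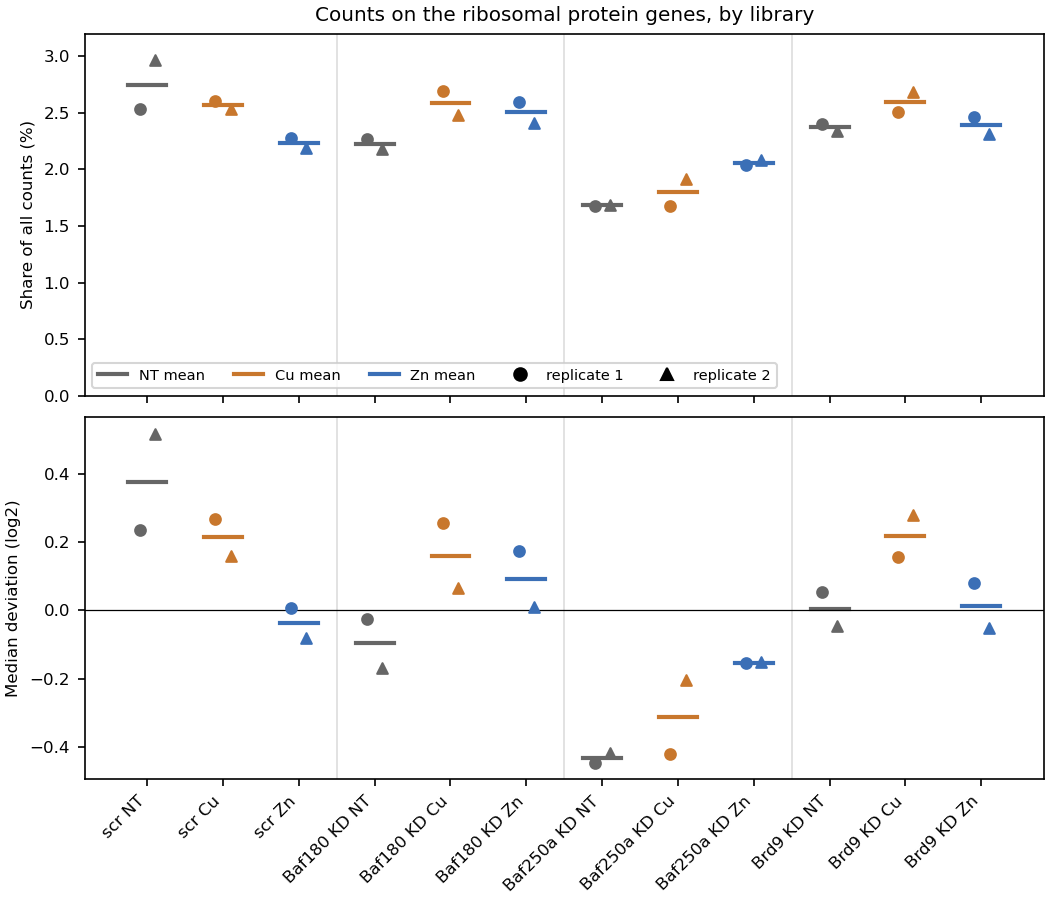
Members in each of the 24 libraries, by cell line and treatment, as their share of all counts in percent (upper panel) and as the median over members of log2 CPM minus the mean of that member over libraries (lower panel); circles are replicate 1, triangles replicate 2 and lines the mean of 2. Untreated scr replicate 2 is highest in both panels (2.97% of counts), and the untreated *Baf250a* KD libraries are at 1.68% each.

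Across the 24 libraries, most members moved together. For each of the 79 members without a paralogue symbol, the Pearson correlation of its log2 CPM with the mean of the others was computed as a description. The median was 0.827, and 46 members were above 0.8. Over 77 genes of mitochondrial ribosomal proteins the same measure had its median at 0.670, with 17 above 0.8. Within a library the members share its depth scaling, any GC bias and any batch of cells, so these values carry no test. Among the members close to the common pattern were *Rpl14* (0.972), *Rpl6* (0.966) and *Rpl12* (0.960), and *Rps19* lay at 0.952. *Rps24* stood furthest from it at 0.0646, followed by the pseudogene *Rps3a2* at 0.167 and *Rps28* at 0.231. *Rpl7*, a 60S protein gene, varied least, with an SD of 0.0912 on the log2 scale and levels between 401 and 532 CPM.

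**Figure D2:**
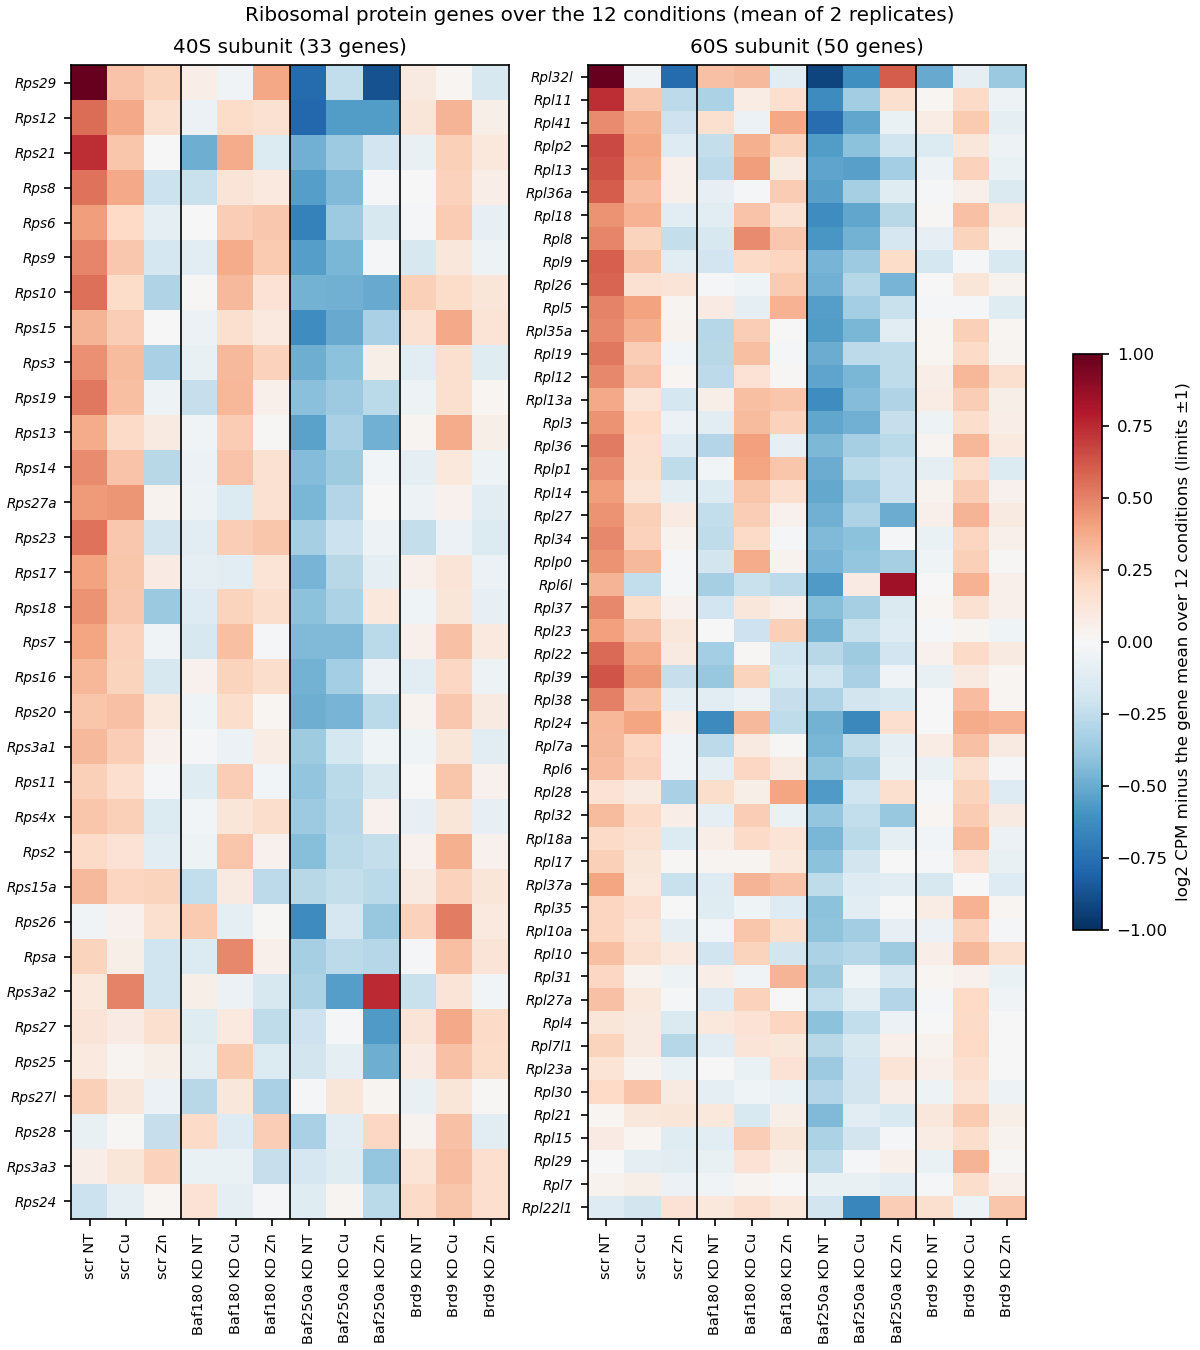
Mean log2 CPM of 2 replicates minus the mean over the 12 conditions, in colour limited to ±1, for 33 members of the 40S (left) and 50 of the 60S (right) that passed the filter, with 1 of the 34 tested members of the 40S not drawn; columns are conditions, and rows are ordered by the difference between untreated scr and untreated *Baf250a* KD. Untreated scr is above the mean and untreated *Baf250a* KD below it in most rows, while *Rps24* (r of 0.0646 with the mean of the others) does not follow them.

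Without added metal, most ribosomal protein genes were called lower than scr in *Baf180* and *Baf250a* KD. In *Brd9* KD about as many were called lower as not, while 67 of 84 lay below scr with no overlap. The difference between the 3 lines was not tested. In *Baf250a* KD, 75 of the 84 members tested were lower and 0 higher (edgeR, adjusted p under 0.05), with a median log2 fold change of -0.86. Over all genes tested, 28.9% were called lower and 28.9% higher, and the median was 0.00. At an unadjusted p under 0.05, 76 were lower (31.1% of all genes) and 0 higher, and DESeq2 called 75 lower and 0 higher. In these bulk libraries, less of this mRNA per cell and fewer cells rich in it cannot be told apart. Both subunits took part, with 29 of 34 members of the 40S and 46 of 50 of the 60S lower, and so did all 13 members with a TOP start. In *Baf180* KD, 60 members were lower and 1 higher (median -0.49), where 19.3% of all genes were lower and 21.7% higher. In *Brd9* KD, 43 were lower and 2 higher (median -0.37), where 14.1% were lower and 15.1% higher. The levels of the 2 libraries of each group were lower with no overlap for 78 members (*Baf250a* KD), 68 (*Baf180* KD) and 67 (*Brd9* KD), and higher with no overlap for 1, 4 and 4. Of all genes, 39.9, 35.5 and 34.6% were lower in this way, and 5994 of 14971, 5385 of 14851 and 4853 of 14277 were higher. These 3 comparisons share the same 2 untreated scr libraries. The *Baf180* KD count was 34 without *Baf180* KD untreated replicate 2. The *Brd9* KD count of 45 fell to 13 without *Brd9* KD untreated replicate 1, 6 without its replicate 2 and 27 without scr untreated replicate 2.

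**Figure D3:**
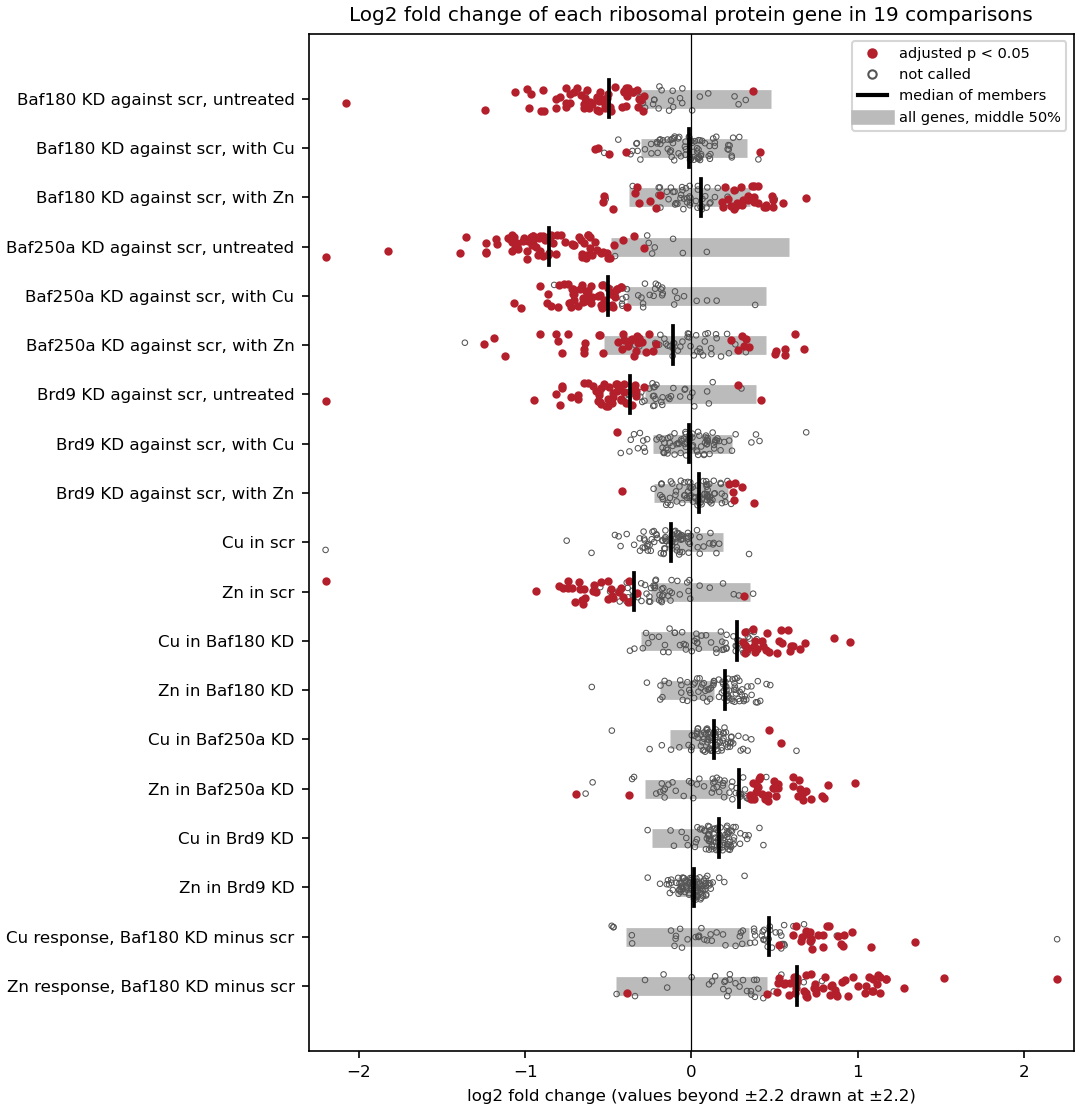
Log2 fold change of each tested member (points, drawn at ±2.2 where beyond it) in 19 comparisons, filled where the adjusted p was under 0.05, with the median of the members as a black line and the middle 50% of all genes as a grey bar. The members' medians lie at -0.49, -0.86 and -0.37 in untreated *Baf180*, *Baf250a* and *Brd9* KD against scr, and at -0.34 for Zn in scr.

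*Rps19*, a 40S protein of the late maturation of that subunit, lay at 225 and 300.2 CPM in the 2 untreated scr libraries (chr7:24884371-24889806, plus strand, GRCm38). It lay at 157 and 150.5 CPM in untreated *Baf180* KD, 132 and 138 in *Baf250a* KD and 182 and 166 in *Brd9* KD. Every KD library was below both scr libraries, and the scr replicates were further apart than those of any KD. The log2 fold changes were -0.76 ± 0.13 (SE, adjusted p = 0.000937) in *Baf180* KD, -0.96 ± 0.13 (adjusted p = 4.12e-05) in *Baf250a* KD and -0.58 ± 0.13 (adjusted p = 0.0156) in *Brd9* KD.

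The proteins of the stalk, the part of the 60S subunit that recruits elongation factors, were each called lower in all 3 lines. *Rplp0* lay at 1651 and 2139 CPM in untreated scr, at 1292 and 1138 in *Baf180* KD, 986 and 1010.0 in *Baf250a* KD and 1489 and 1210.5 in *Brd9* KD. *Rplp2* fell further, from 321 and 441 CPM in scr to 207 and 196 in *Baf180* KD, 163 and 159.9 in *Baf250a* KD and 236 and 199.8 in *Brd9* KD. None of these KD libraries reached either scr library. The log2 fold changes of *Rplp2* were -0.90 ± 0.14 (adjusted p = 0.000392), -1.24 ± 0.13 (adjusted p = 6.05e-06) and -0.79 ± 0.15 (adjusted p = 0.00685), and those of *Rplp1* were -0.50, -0.99 and -0.56.

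*Rpl5* and *Rpl11*, which enter the ribosome together with 5S rRNA, were each called lower in all 3 lines. *Rpl11* lay at 199 and 288 CPM in untreated scr, 120.3 and 111 in *Baf180* KD, 88.2 and 97.4 in *Baf250a* KD and 148 and 143 in *Brd9* KD. Its log2 fold changes were -1.06 ± 0.15 (adjusted p = 0.000224), -1.39 ± 0.15 (adjusted p = 5.94e-06) and -0.72 ± 0.15 (adjusted p = 0.0118). *Rpl5* lay at 146 and 158 CPM in scr, 109.7 and 118 in *Baf180* KD, 72.5 and 74.8 in *Baf250a* KD and 103 and 109 in *Brd9* KD, with log2 fold changes of -0.40, -1.05 and -0.50.

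*Rps21* and *Rps29*, which encode short proteins of the 40S, had the largest falls that the naming rule gave for the small subunit. The pseudogene *Rpl32l* fell further in each line (-2.08, -3.60 and -3.02), from 1.85 and 4.83 CPM in scr, and was below the count that the rule asks for. *Rps21* lay at 113 and 169.9 CPM in untreated scr, 58.1 and 60.6 in *Baf180* KD, 51.5 and 68.9 in *Baf250a* KD and 86.6 and 72.2 in *Brd9* KD. Its log2 fold change of -1.24 ± 0.16 in *Baf180* KD (adjusted p = 0.000121) was the most negative of the members named by the rule there. *Rps29* lay at 71.9 and 113 CPM in scr and at 23.96 and 28.2 in *Baf250a* KD, a change of -1.83 ± 0.18 (adjusted p = 2.36e-06). In *Brd9* KD it lay at 49.9 and 44.8 CPM (-0.95 ± 0.19, adjusted p = 0.00886). *Rps6*, the target of S6 kinase, fell in all 3 lines, by 0.42, 1.10 and 0.43 on the log2 scale, as did *Rps14* (-0.52, -0.91 and -0.55). *Rpl37* of the large subunit changed by -0.67, -0.91 and -0.45 and passed the test in each line. *Rpl41* fell by 0.29 and 1.23 in *Baf180* and *Baf250a* KD and was at -0.37 (adjusted p = 0.0588) in *Brd9* KD. *Rpsa*, which is also known as a laminin receptor, fell by 0.35 and 0.57 in *Baf180* and *Baf250a* KD and was at -0.22 (adjusted p = 0.244) in *Brd9* KD.

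A few members went the other way. *Rps24*, a 40S protein gene with alternatively spliced transcripts, lay at 271 and 265.4 CPM in untreated scr and at 354 and 332 in *Baf180* KD and 351 and 357 in *Brd9* KD, with no overlap. The log2 fold changes were 0.37 ± 0.10 (adjusted p = 0.0117) and 0.42 ± 0.09 (adjusted p = 0.0115). In *Baf250a* KD it lay at 273 and 298 CPM and did not pass the test (0.09, adjusted p = 0.444). *Rps26*, a 40S protein at the mRNA exit, rose in *Brd9* KD from 306 and 329 to 379 and 382 CPM (0.28 ± 0.09, adjusted p = 0.0469). In *Baf250a* KD *Rps26* fell to 207 and 213 CPM (-0.60, adjusted p = 0.000216), and in *Baf180* KD its 460.4 and 329.9 CPM were not called (0.33, adjusted p = 0.0739).

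**Figure D4:**
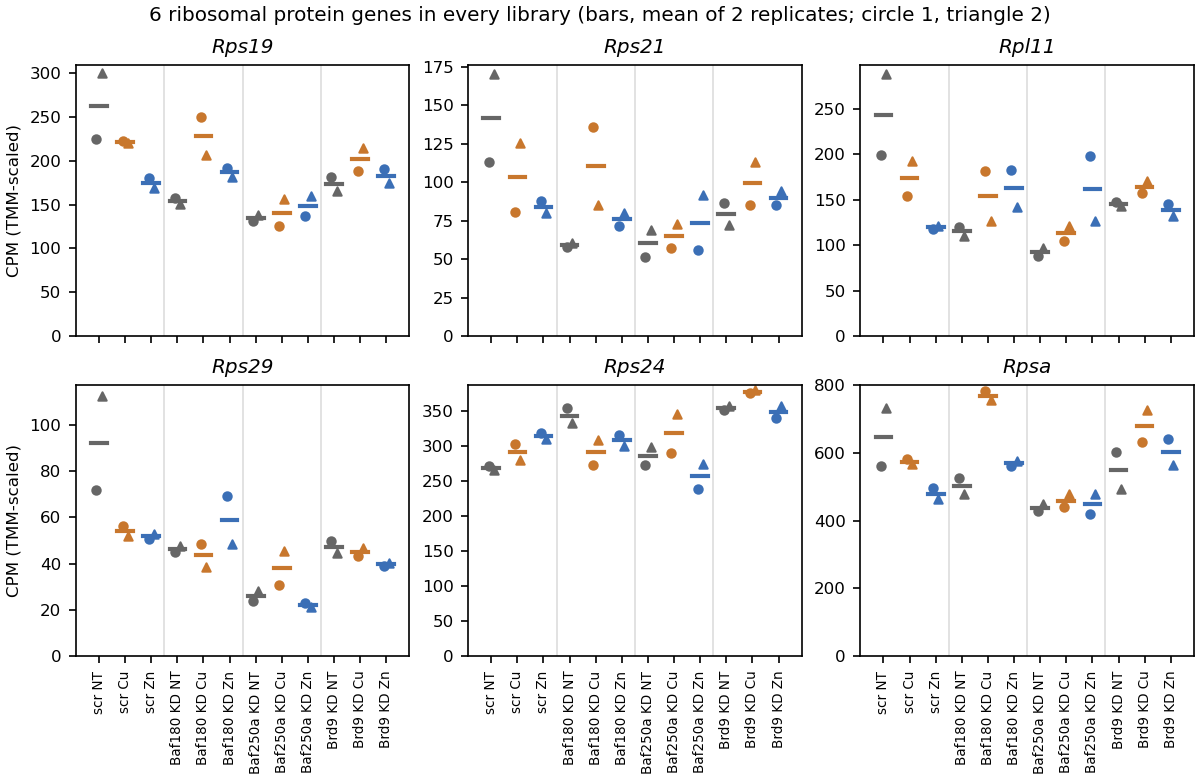
CPM of *Rps19*, *Rps21*, *Rpl11*, *Rps29*, *Rps24* and *Rpsa* in every library, by cell line and treatment; circles are replicate 1, triangles replicate 2 and bars the mean of 2. Untreated scr replicate 2 is the highest library for *Rps19*, *Rps21*, *Rpl11* and *Rps29* (300.2 CPM for *Rps19*), and *Baf180* KD with Cu is highest for *Rpsa* (782 and 755 CPM).

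With Cu in the medium of both lines, many members were called lower in *Baf250a* KD and few in the other KD lines, and the difference between the lines was not tested. In *Baf250a* KD with Cu, 51 of 84 members were lower and 0 higher than in scr with Cu (median -0.50), against 20.0% lower and 21.1% higher over all genes. Before adjustment (p under 0.05), 60 were lower (24.5% of all genes) and 0 higher, and DESeq2 called 60 lower and 0 higher. Levels did not overlap for 68 members, all lower, where 37.2% of all genes were lower and 34.1% higher with no overlap. *Rps19* lay at 125 and 156 CPM against 223 and 220.4 in scr with Cu, a change of -0.63 ± 0.13 (adjusted p = 0.00578). The largest falls named by the rule were those of *Rpl24*, a 60S protein, from 12.5 and 18.3 to 6.42 and 8.29 CPM (-1.07 ± 0.23, adjusted p = 0.00717), and of the pseudogene *Rps3a2*, from 11.6 and 10.8 to 5.96 and 4.78 CPM (-1.03 ± 0.18, adjusted p = 0.00316). The count of 51 was 5 without *Baf250a* KD with Cu replicate 1 and 30 without its replicate 2.

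In *Baf180* KD with Cu, 4 members were lower and 1 higher (median -0.01), with 10.7% of all genes lower and 14.2% higher. *Rps19* lay at 250.3 and 207 CPM, on both sides of the scr libraries with Cu (0.03, adjusted p = 0.886). *Rpsa* rose, at 782 and 755 CPM against 582 and 566 (0.41 ± 0.14, adjusted p = 0.0497). *Rps27a*, made as a fusion with ubiquitin, fell, at 195 and 140.4 CPM against 226 and 273 (-0.58 ± 0.17, adjusted p = 0.0278), and so did *Rps3a2* (-0.56 ± 0.18, adjusted p = 0.039). No-overlap counts were 16 of 84 lower and 8 higher, where 28.9% of all genes were lower and 31.7% higher in this way. The 5 calls became 2 without *Baf180* KD with Cu replicate 1 and 0 without its replicate 2. In *Brd9* KD with Cu, 1 member was lower and 0 higher (median -0.01), against 5.27% lower and 6.94% higher over all genes. That member was *Rpl5*, at 109 and 103 CPM against 132 and 153 in scr (-0.45 ± 0.11, adjusted p = 0.0445). *Rpl5* was also called lower in *Baf180* KD and in *Baf250a* KD with Cu. At an unadjusted p under 0.05, 7 were lower and 2 higher (1916 and 2092 of all 14958 genes), and DESeq2 called 3 lower and 1 higher. *Rps19* lay at 189 and 215 CPM (-0.15, adjusted p = 0.42). Without scr with Cu replicate 1 the *Brd9* KD count was 33, without its replicate 2 it was 6, and without either *Brd9* KD library it was 0.

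With Zn, members were called in both directions in each line. In *Baf180* KD, 28 were higher and 9 lower than in scr with Zn (median 0.06), against 24.9% higher and 24.9% lower over all genes. The largest rises were in *Rpl28*, a 60S protein with a TOP start, at 588 and 380.3 CPM against 296 and 278 (0.69 ± 0.16, adjusted p = 0.00627), and *Rpl41*, at 1133 and 791 against 655 and 603 (0.55 ± 0.14, adjusted p = 0.00915). For both, replicate 1 was far above replicate 2, and both were above scr. *Rps15a*, a 40S protein, fell to 59.8 and 73.0 CPM from 90.7 and 94.8 (-0.53 ± 0.10, adjusted p = 0.00218), as did *Rps3a3* (-0.52 ± 0.07, adjusted p = 0.000245). *Rps14* rose by 0.38 ± 0.06 (adjusted p = 0.00111). *Rps19* did not pass the test (192 and 182 CPM against 180.2 and 169, 0.04, adjusted p = 0.616). Without scr with Zn replicate 1 the 37 calls became 22, and without its replicate 2 they became 20. With a correction for GC content and length, 23 were higher and 23 lower, with no shares of all genes in that fit to set beside them.

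In *Baf250a* KD with Zn, 31 of 83 members were lower and 12 higher (median -0.11), against 28.1% lower and 29.4% higher over all genes. Replicate 2 of this group held 495778 counts. *Rps29* lay at 23.2 and 21.4 CPM in the KD and at 50.9 and 52.7 in scr (-1.19 ± 0.12, adjusted p = 8.04e-14), below scr in both replicates. *Rps15a* lay at 47.6 and 87.5 CPM against 90.7 and 94.8 (-0.91 ± 0.11, adjusted p = 5.17e-11). Its deep replicate, with 683 counts on this gene, was far from scr, and the shallow one, with 45, was near it. Over the alternatives its log2 fold change ran from -1.01 to -0.12. The 2 largest rises were those of *Rps18*, at 365 and 208 CPM against 205 and 194 (0.68 ± 0.12, adjusted p = 1.69e-06), and *Rpl11*, at 198 and 126 against 118 and 121 (0.63 ± 0.09, adjusted p = 3.1e-08), and in each the deep replicate was far from scr and the shallow one near it. *Rps19* fell by 0.32 ± 0.10 (138 and 159 CPM against 180.2 and 169, adjusted p = 0.00409). The 43 calls became 11 without replicate 1 and 63 without replicate 2 of the KD, and 4 and 7 without scr with Zn replicates 1 and 2. DESeq2 called 8 lower and 1 higher.

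In *Brd9* KD with Zn, 6 of 83 members were higher and 1 lower (median 0.05), against 12.6% higher and 10.6% lower over all genes. *Rps10*, a 40S protein with a TOP start, rose from 11.9 and 12.3 to 15.6 and 16.7 CPM (0.38 ± 0.11, adjusted p = 0.0377), and *Rpsa* from 495 and 464 to 641 and 566 (0.30 ± 0.08, adjusted p = 0.0233). *Rps29* fell from 50.9 and 52.7 to 39.1 and 40.5 CPM (-0.41 ± 0.08, adjusted p = 0.00717). *Rps19* was at 190.2 and 175 CPM and was not called (0.04, adjusted p = 0.743). The 7 calls became 1 and 0 without scr with Zn replicates 1 and 2, and 20 and 37 without *Brd9* KD with Zn replicates 1 and 2.

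The metals were next compared with no treatment within each line, where the 6 libraries of a line share 1 fit and the 2 metals share the untreated libraries. In scr, Zn was followed by lower levels. Of 84 members, 30 were lower and 1 higher (median -0.34), against 7.13% lower and 10.5% higher over all genes. With no overlap, 72 members were lower, as were 41.8% of all genes. *Rps19* went from 225 and 300.2 CPM to 180.2 and 169 (-0.50 ± 0.13, adjusted p = 0.037) and *Rpl11* from 199 and 288 to 118 and 121 (-0.93 ± 0.18, adjusted p = 0.0275). The pseudogene *Rpl32l* went from 1.85 and 4.83 CPM to 0.333 and 0.368 (-3.14 ± 0.57, adjusted p = 0.0275). The exception was again *Rps24*, which rose to 319 and 310.3 CPM (0.32 ± 0.08, adjusted p = 0.0368). The 31 calls became 0 without scr untreated replicate 2 or without either scr Zn library, while 49 and 47 were called without scr with Cu replicates 1 and 2. Corrected for GC content and length, 3 were called, all lower.

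Cu in scr changed no member by the test. The count was 0 higher and 0 lower (edgeR, median -0.12), where 0.0333% of all genes were called in either direction. Before adjustment (p under 0.05), 6 were lower and 0 higher (4.47 and 5.92% of all genes), and DESeq2 called 1 lower. *Rps19* lay at 223 and 220.4 CPM (-0.22, adjusted p = 0.534).

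In *Baf180* KD, Cu was followed by higher levels. Of 84 members, 28 were higher and 0 lower (median 0.27), against 5.46% higher and 8.30% lower over all genes. With no overlap, 54 were higher, as were 32.4% of all genes. At an unadjusted p under 0.05, 45 were higher and 2 lower (14.4 and 16.7% of all genes), and DESeq2 called 38 higher and 1 lower. *Rps19* went from 157 and 150.5 to 250.3 and 207 CPM (0.54 ± 0.10, adjusted p = 0.0114). *Rpl24* went from 7.89 and 6.83 to 17.2 and 12.1 CPM (0.95 ± 0.20, adjusted p = 0.0176) and *Rps21* from 58.1 and 60.6 to 136 and 84.9 (0.86 ± 0.18, adjusted p = 0.0163). *Rpsa* went from 527 and 478 to 782 and 755 CPM (0.58 ± 0.08, adjusted p = 0.00646), *Rplp0* rose by 0.52 and *Rplp2* by 0.59. In each of these, both Cu libraries were above both untreated ones and Cu replicate 1 was the highest. *Rpl5* (-0.20, adjusted p = 0.387), *Rpl41* (-0.26, adjusted p = 0.236) and *Rps24* (-0.27, adjusted p = 0.0587) were not called. The 28 calls became 0 without untreated replicate 2, 16 without untreated replicate 1 and 1 without Cu replicate 1.

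Zn in *Baf180* KD gave no calls. The count was 0 in both directions (edgeR, median 0.20), where 0.0197% of all genes were called in either direction. Before adjustment (p under 0.05), 23 members were higher and 0 lower (5.77 and 7.34% of all genes), and DESeq2 called 1 higher. With no overlap, 43 were higher and 2 lower, where 23.8% of all genes were higher and 21.2% lower. *Rps19* went from 157 and 150.5 to 192 and 182 CPM (0.26, adjusted p = 0.336).

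In *Baf250a* KD, Zn was followed by higher levels of 32 of 83 members and lower levels of 2 (median 0.29), against 8.85% and 7.02% of all genes. *Rpl11* rose from 88.2 and 97.4 to 198 and 126 CPM (0.99 ± 0.12, adjusted p = 5.62e-06), *Rpl28* from 262 and 224 to 472 and 336 (0.82 ± 0.12, adjusted p = 4.33e-05) and *Rpl41* by 0.80 ± 0.13 (adjusted p = 0.000258). *Rps25*, a 40S protein, fell from 113 and 125 to 90.5 and 99.2 CPM (-0.37 ± 0.11, adjusted p = 0.0256). *Rps19* lay at 138 and 159 CPM and was not called (0.08, adjusted p = 0.715). The 34 calls became 14 without untreated replicate 2 and 5 without Zn replicate 1, the deep library. With Zn replicate 2, of 495778 counts, left out, 45 were called.

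Cu in *Baf250a* KD gave 2 calls higher and 0 lower (median 0.13), against 0.626% higher and 0.646% lower over all genes. They were *Rps29*, from 23.96 and 28.2 to 30.8 and 45.5 CPM (0.54 ± 0.14, adjusted p = 0.0434), and *Rps26*, from 207 and 213 to 302 and 277 (0.47 ± 0.10, adjusted p = 0.0182). At an unadjusted p under 0.05, 12 were higher and 1 lower (766 and 764 of all 14706 genes), and DESeq2 called 0. Without Cu replicate 2 or untreated replicate 1 none of the members was called (0), without untreated replicate 2 there was 1, and without Zn replicates 1 and 2 there were 8 and 6.

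In *Brd9* KD neither metal gave a call. With Cu the count was 0 in both directions (edgeR, median 0.16), where 0.274% of all genes were called. Before adjustment (p under 0.05), 23 members were higher and 0 lower (7.36 and 8.84% of all genes), and DESeq2 called 0. With no overlap, 65 were higher and 1 lower, where 32.5% of all genes were higher and 21.1% lower. With Zn the count was also 0 (median 0.01), where 0.0334% of all genes were called, 1 member was lower and 0 higher at an unadjusted p under 0.05 (1.34 and 1.68% of all genes), and DESeq2 called 0. *Rps19* went from 182 and 166 CPM untreated to 189 and 215 with Cu (adjusted p = 0.355) and 190.2 and 175 with Zn (adjusted p = 1).

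Whether the response of *Baf180* KD differed from that of scr was tested directly, as the difference of the 2 log2 fold changes in a fit of all 24 libraries. For Zn, 52 of 84 members had a higher response in *Baf180* KD and 1 a lower one (median difference 0.63), against 16.1% and 12.6% of all 16524 genes, whose median was 0.09. *Rpl11* fell by 0.93 in scr and was at 0.47 in *Baf180* KD, a difference of 1.52 ± 0.25 (adjusted p = 0.00094). *Rplp2* fell by 0.72 in scr and was at 0.45 in *Baf180* KD, a difference of 1.28 ± 0.23 (adjusted p = 0.00112). The changes within each line come from its own fit of 6 libraries, so they do not subtract exactly to these differences. *Rps19* differed by 0.87 ± 0.18 (adjusted p = 0.00194), and *Rps24* by -0.39 ± 0.13 (adjusted p = 0.0324), the single lower response. Members with a TOP start were called in 10 of 13. For Cu, 24 members had a higher response in *Baf180* KD and 0 a lower one (median difference 0.47), against 5.39% and 7.41% of all genes, whose median was 0.06. At an unadjusted p under 0.05, 49 were higher and 1 lower (15.2 and 14.4% of all genes), and DESeq2 called 29 higher and 1 lower. *Rps21* differed by 1.35 ± 0.33 (adjusted p = 0.0149), *Rpl36* of the 60S by 1.08 ± 0.23 (adjusted p = 0.01) and *Rps19* by 0.82 ± 0.18 (adjusted p = 0.0101). *Rpl5* differed by 0.75 for Zn (adjusted p = 0.0266) and by -0.07 for Cu (adjusted p = 0.889).

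Both differences rest in part on the untreated libraries, in which scr was highest and *Baf180* KD lower. The Zn count of 53 became 23 without scr untreated replicate 2, 30 without scr with Zn replicate 2, 31 without *Baf180* KD with Zn replicate 1 and 35 without *Baf180* KD untreated replicate 2. The Cu count of 24 became 0 without scr untreated replicate 2 or *Baf180* KD with Cu replicate 1, 1 without *Baf180* KD untreated replicate 2, 15 without scr with Cu replicate 2 and 39 without scr untreated replicate 1. Corrected for GC content and length, 22 members had a higher response to Zn and 2 to Cu.

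Paralogues were set beside their parents. *Rpl7l1* lay at a mean of 116 CPM per kb against 400.2 for *Rpl7*, *Rpl22l1* at 25.5 against 350.1 for *Rpl22*, and *Rps27l*, a target of p53, at 193 against 716 for *Rps27*. In untreated *Baf180* KD, *Rpl22* fell from 229.8 and 251 to 126 and 131 CPM (-0.89 ± 0.11, adjusted p = 5.88e-05), while *Rpl22l1* lay at 12.4 and 13.0 CPM in scr and 13.6 and 16.4 in the KD (0.26, adjusted p = 0.219). The same pair in *Baf250a* KD was at -0.84 (adjusted p = 2.52e-05) and -0.05 (adjusted p = 0.806). The difference between paralogue and parent was not tested. *Rpl7* itself was not called in these comparisons (-0.05 and -0.11), whereas *Rpl7l1* fell by 0.32 and 0.51. *Rps27l* fell by 0.51 in *Baf180* KD (adjusted p = 0.00906) and was at -0.27 in *Baf250a* KD (adjusted p = 0.0938). *Rpl39*, on the X chromosome, fell by 0.99, 0.83 and 0.68 in untreated *Baf180*, *Baf250a* and *Brd9* KD, and its paralogue *Rpl39l* had no counts. No counts fell on *Rpl10l* either, while *Rpl10* fell by 0.48 and 0.62 in *Baf180* and *Baf250a* KD and was at -0.22 in *Brd9* KD (adjusted p = 0.228).

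Other lists of the pathway are given by their counts, to be read against the shares of all genes in the same untreated comparisons, which were 28.9% lower and 28.9% higher in *Baf250a* KD, 19.3% and 21.7% in *Baf180* KD and 14.1% and 15.1% in *Brd9* KD. Of 77 mitochondrial ribosomal protein genes tested, the untreated comparisons called 59 lower for *Baf250a* KD, 38 for *Baf180* KD and 25 for *Brd9* KD, with medians of -0.55, -0.39 and -0.30, each nearer 0 than that of the cytosolic members. Of 28 translation factors and other genes known for TOP mRNAs, 23, 11 and 6 were lower and 1, 2 and 3 higher. *Eef2*, the elongation factor that moves the ribosome, fell by 1.31, 0.77 and 0.57, whereas *Eef1a1*, which brings in aminoacyl-tRNA, fell by 0.52 in *Baf250a* KD and was at -0.07 and -0.08 in *Baf180* and *Brd9* KD (adjusted p = 0.719 and 0.616). Of 70 factors of ribosome assembly and RNA polymerase I, 51, 24 and 7 were lower and 1, 6 and 10 higher, which in *Brd9* KD was near the shares of all genes. *Fbl*, the methyltransferase of rRNA, fell by 1.08 and 0.44 in *Baf250a* and *Baf180* KD, and *Polr1b*, a core subunit of RNA polymerase I, by 0.92 and 0.50. *Ncl* and *Npm1*, nucleolar proteins of ribosome assembly, rose in untreated *Baf180* KD by 0.50 and 0.68 and in *Brd9* KD by 0.65 and 0.97, and were at -0.04 and -0.00 in *Baf250a* KD. Of 19 growth-control genes tested, 9 were lower and 4 higher in *Baf250a* KD, 3 and 5 in *Baf180* KD and 3 and 4 in *Brd9* KD, the last 2 pairs near the shares of all genes. *Myc*, which drives transcription of ribosomal protein genes, fell by 0.55 in *Baf250a* KD (adjusted p = 0.000729) and was at 0.10 in *Baf180* KD and -0.23 in *Brd9* KD (adjusted p = 0.497 and 0.0963). *Eif4ebp1*, the translation inhibitor phosphorylated by mTORC1, fell by 1.23, 0.52 and 0.40, and *Larp1* fell by 0.57 in *Baf250a* KD alone among the 3 untreated lines, the difference between lines not being tested.

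Sequence composition moved with these results. Members are short, with a median transcript of 869 bases against 3054 for all protein-coding genes tested, and their median GC content was 51.2% against 50.4%. Each library's log2 CPM, less the average over libraries, had a slope on GC content that, per 10 points of GC, ran from -0.347 in scr with Zn replicate 2 to 0.314 in scr untreated replicate 2, and scr untreated replicate 1 was at 0.0854. The slope on length, per doubling, ran from -0.109 in scr untreated replicate 2 to 0.0797 in *Baf250a* KD with Cu replicate 1. It was -0.0610 in scr untreated replicate 1, and 0.0723 and 0.0792 in the untreated *Baf250a* KD libraries. Among members, the Spearman correlation between GC content and the log2 fold change was -0.28 in untreated *Baf180* KD, -0.41 in *Baf250a* KD, -0.25 in *Brd9* KD and -0.39 for Zn in scr. Over all protein-coding genes it was -0.30, -0.26, -0.41 and -0.71, all descriptions across genes, which are not independent. With transcript length in place of GC content, it was 0.28, 0.23, 0.26 and 0.19 among members. Over all protein-coding genes that correlation was 0.22, 0.21, 0.25 and 0.31. With a smooth trend on GC content and length taken out of each library, the members' median was -0.27 in untreated *Baf180* KD, -0.49 in *Baf250a* KD and -0.16 in *Brd9* KD, against -0.49, -0.86 and -0.37 without it. The counts were 42 lower and 5 higher, 67 and 2, and 22 and 6, with no shares of all genes in the corrected fits to set beside them. *Rps19* was still called in all 3 lines, at -0.46, -0.54 and -0.26. For Zn in scr the median moved from -0.34 to -0.18 and *Rps19*, no longer called, to -0.15. The trend was fitted over all genes, and how much of the change it removes is technical was not tested. GC content and length were taken out together, and the part of each was not tested.

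**Figure D5:**
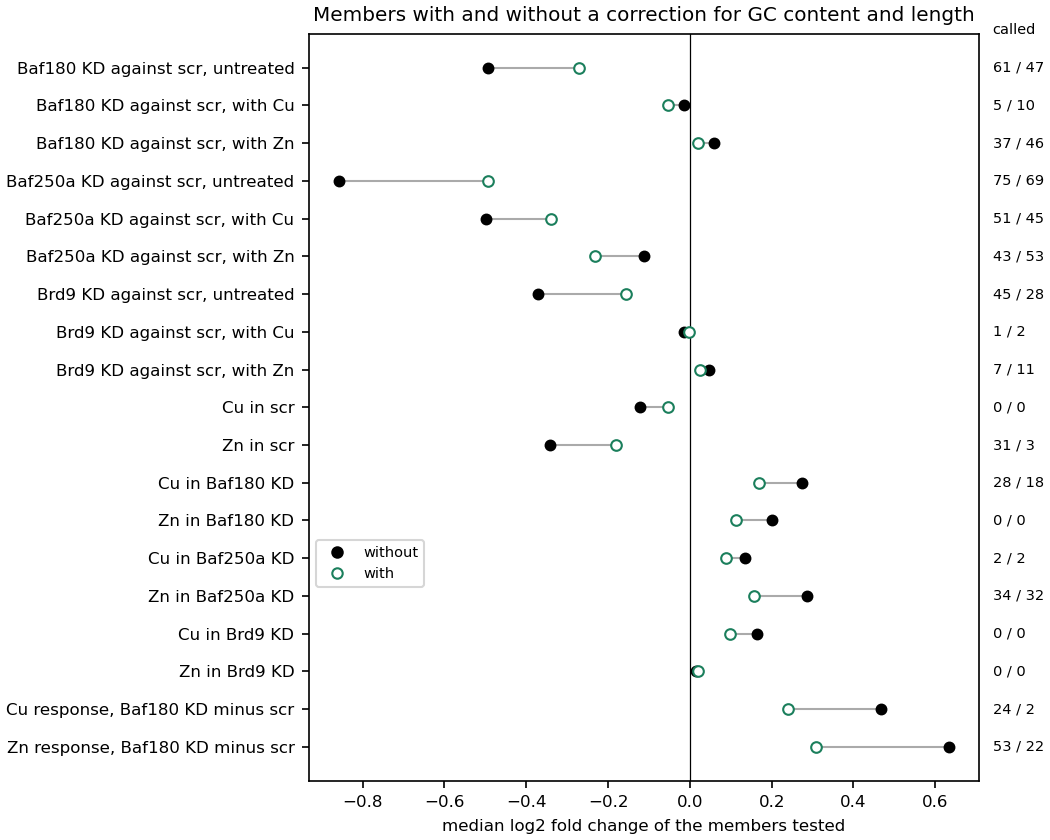
Median log2 fold change of the members tested (x) in 19 comparisons (y), without (black) and with (open green) the correction for GC content and transcript length; the numbers at the right are members called without and with it. The medians of all 3 untreated KD comparisons stay below 0 and move toward it, from -0.86 to -0.49 for *Baf250a* KD.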

How the data were processed

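RNA was depleted of rRNA and made into strand-specific libraries. The authors aligned reads to mm10 with STAR, kept uniquely mapped reads and counted them per gene with featureCounts, and the deposited table holds whole read counts for 55291 symbols in 24 libraries. The authors' own DESeq2 comparison tables, which hold fold changes and p-values, were not used. Libraries were grouped by their titles, since the treatment tag in the labels contradicts some titles.

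Each comparison was fitted over all genes with edgeR 4.0.16 (R 4.3.3) by the quasi-likelihood test after TMM scaling and filterByExpr, with Benjamini-Hochberg adjustment at 0.05. A KD was compared with scr in 4 libraries, a metal with no treatment in the 6 of a line, and the difference of responses in all 24. CPM values are TMM-scaled over the 24 libraries, with a prior count of 2 for log2 values. All p-values rest on the spread between the 2 replicates of each group, pooled over the groups of a fit and moderated over all genes. A metal's test thus also uses the spread of the other metal's libraries, and a difference of responses that of all 24. The fits were tested on simulated data. The alternatives were DESeq2 1.42.0, other scaling and filtering, a fit of all 24 libraries, a replicate block, a correction for GC content and length, and leaving out each library. Shares of all genes are given for the main fits alone, so counts from an alternative cannot be read against them.

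Named members were *Rps19*, paralogues with their parents, the stalk proteins, *Rpsa*, *Rps6*, *Rpl5*, *Rpl11*, *Rps14*, *Rpl41*, *Rpl37* and, per comparison, the 2 largest rises and 2 largest falls called with a mean scaled count of at least 50 and no overlap. A further member named by this rule enters all counts and medians but is not reported here. Others named for their correlation were chosen after their values were seen. The members and lists were chosen with earlier results of these data known. Promoter windows came from RefSeq (GRCm38.p6), which matched 64 of 89 members.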

Additional observations from a re-analysis of the deposited data

Results flagged for a closer look

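The response to metal differed between *Baf180* KD and scr by the test of the difference itself. For Cu this held for 24 members, all with a higher response in *Baf180* KD, against 5.39% of all genes higher and 7.41% lower. For Zn it held for 53, of which 52 had a higher response, against 16.1% higher and 12.6% lower. The Cu count became 0 without scr untreated replicate 2 or without *Baf180* KD with Cu replicate 1, and 2 once GC content and length were corrected for. The Zn count became 23 without scr untreated replicate 2 and 22 with that correction. Both counts share the untreated libraries of the 2 lines, so they are not separate pieces of evidence.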

How the results depend on the processing

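Single members were followed through the alternatives only for *Rps19* and the largest rises and falls of each comparison. None of these called values changed sign, and other called members were not followed. Many lost their call, in 47 of 358 alternatives other than leaving out 1 library, and more often when 1 library was left out. Over all alternatives, *Rps19* in *Baf250a* KD with Zn ran from -0.54 to -0.16. *Rps26* in untreated *Brd9* KD ran from 0.23 to 0.52, and *Rps3a2* in *Baf180* KD with Cu from -0.61 to -0.47. *Rpl5*, called higher in *Baf250a* KD with Zn, lay at 141 and 56.4 CPM, on both sides of scr with Zn (109 and 111). Medians near 0 (*Baf180* and *Brd9* KD against scr with Cu or Zn, and Zn in *Brd9* KD) took the other sign in some alternatives. The count of members called stayed within 1.5 times in 55 of 100 fits that left out 1 library and 97 of 135 other alternatives, and the members' median moved by less than its spread in 79 of 100 and 124 of 135. A count of 0 that stayed at 0 is among those within 1.5 times. It stayed so whenever 1 library was left out for Cu in scr, Zn in *Baf180* KD and both metals in *Brd9* KD. The members' median stayed below 0 in every alternative for untreated *Baf180* KD (-0.64 to -0.27), *Baf250a* KD (-0.95 to -0.49) and *Brd9* KD (-0.48 to -0.16) and for Zn in scr (-0.45 to -0.18). With 2 replicates, counts past the threshold depend on single libraries, and the shallow *Baf250a* KD library with Zn limits every value that uses it.

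Leaving out 1 library gave 34 to 70 members called for *Baf180* KD against scr untreated, 0 to 7 with Cu and 20 to 55 with Zn. For *Baf250a* KD against scr it gave 72 to 78 untreated, 5 to 75 with Cu and 4 to 63 with Zn, and for *Brd9* KD 6 to 63, 0 to 33 and 0 to 37. It gave 0 to 49 for Zn in scr, 0 to 36 for Cu in *Baf180* KD, 0 to 8 for Cu and 5 to 45 for Zn in *Baf250a* KD, and 0 to 39 and 23 to 54 for the differences of Cu and Zn responses.

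Corrected for GC content and length, the counts were 10 for *Baf180* KD with Cu, 28, 2 and 11 for *Brd9* KD untreated, with Cu and with Zn, 18 for Cu in *Baf180* KD, 3 for Zn in scr, and 2 and 22 for the differences of Cu and Zn responses. With every gene of at least 1 count they were 9 for *Baf180* KD with Cu, 9 for *Brd9* KD with Cu, 49, 7 and 5 for Cu in *Baf180* KD, *Brd9* KD and scr, 12 and 47 for Zn in *Baf180* KD and scr, and 44 for the difference of Cu responses. With all 24 libraries in 1 fit they were 8 and 17 for *Baf180* KD with Cu and Zn, 22 for *Baf250a* KD with Zn, 2 and 0 for *Brd9* KD with Cu and Zn, 0 and 14 for Cu and Zn in *Baf250a* KD, and 48 for Zn in scr. DESeq2 gave 9 for *Baf250a* KD with Zn, 4 for *Brd9* KD with Cu, 0 and 12 for Cu and Zn in *Baf250a* KD, 1 for Cu in scr and 1 for Zn in *Baf180* KD, and RLE scaling 1 for Cu in *Baf250a* KD. The cause was not tested.

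The labels do not say that a replicate number marks a shared batch. Differences in gene level between the replicates of a condition, taken in number order, were compared between conditions. Their Pearson correlations lay between -0.200 and 0.356, so the numbers were not taken to pair libraries. With the replicate block the counts were 19 for *Baf250a* KD with Zn, 0 and 22 for *Brd9* KD with Cu and Zn, 44 and 9 for Cu and Zn in *Baf180* KD and 0 for Zn in scr. A block with crossed numbers, chosen after seeing the data, gave 68 for untreated *Brd9* KD and 70 for untreated *Baf180* KD.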
